A study of Mus musculus with 9 samples.

Results

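In all, 8 genes named for the proximal prostate duct or for the lining of the urethra and bladder were followed across the sorted prostate cells: Clu, Ppp1r1b, Aqp3, Sox9, Upk1a, Upk1b, Upk2 and Upk3a. They were chosen by name, and every probe that the scanner files give to one of these symbols or an older synonym was taken. These were 11 of the 41174 probes on the array and 8 of its 27670 named genes or transcripts. Sox9 had 3 probes, Upk1a had 2 and each of the others had 1. All 11 passed the filter that at least 3 arrays carry a sample signal well above background, and 5 of them did so on all 9 arrays.

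Prostates of BL6 mice were the source of the primary cells, which FACS, a sorting of cells by the fluorescence of bound antibodies, divided by surface proteins. The marker-positive group, called stem cells in the labels, was Lin-CD44+CD133+Sca-1+CD117+ and is represented by 3 arrays. The marker-negative group, called non-stem cells there, was Lin-CD44-CD133-Sca-1-CD117- and is represented by 6 arrays. Both groups are untreated cells taken straight from the tissue, and the comparison asks how gene expression differs between them. The labels give neither the age of the mice nor the number of mice behind an array, and they do not say that arrays came from separate animals. The p-values thus rest on the scatter among these arrays, part of which may be technical.

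The prostatic ducts of the mouse drain into the urethra, and the duct segment nearest the urethra is called proximal. Its epithelium differs from that of the distal, secreting tips and has been linked to cells that outlast androgen withdrawal, and Sca-1 is one of the surface proteins used to enrich such cells. The urothelium lines the bladder and part of the urethra. Its uppermost cells are covered by plaques of uroplakins, which form pairs: the tetraspanin Upk1a joins Upk2 and the tetraspanin Upk1b joins Upk3a. Clu encodes clusterin, a secreted chaperone; Aqp3 a water and glycerol channel of basal and lining epithelia; Ppp1r1b the phosphatase inhibitor DARPP-32; and Sox9 a transcription factor of developing ducts.

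The sequence just upstream of the transcript start was found in RefSeq (build GRCm38.p6) for 3 of the 8 genes. These 250 bases are shown for every member found there, whatever its values on the arrays. Each runs 5' to 3' on the strand of its gene and ends at the base before the start, and positions are counted back from there. Capitals mark matches to 5 motifs searched on both strands: TATAAA for the TATA box, AGATAA for the GATA motif, AGGTCA for a half-site of nuclear receptors, GGGCGG for the GC box and AACCNGNTT for the Grainyhead motif. Aqp3 lies on the minus strand with its window at chr4:41098184-41098433, Upk1a on the minus strand at chr7:30612735-30612984, and Upk3a on the plus strand at chr15:85016891-85017140.
Aqp3: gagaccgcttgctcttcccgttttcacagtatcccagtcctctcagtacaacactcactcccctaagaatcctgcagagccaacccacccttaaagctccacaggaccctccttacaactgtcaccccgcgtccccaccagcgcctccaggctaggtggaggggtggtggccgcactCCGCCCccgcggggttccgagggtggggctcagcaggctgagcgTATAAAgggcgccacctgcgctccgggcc
Upk1a: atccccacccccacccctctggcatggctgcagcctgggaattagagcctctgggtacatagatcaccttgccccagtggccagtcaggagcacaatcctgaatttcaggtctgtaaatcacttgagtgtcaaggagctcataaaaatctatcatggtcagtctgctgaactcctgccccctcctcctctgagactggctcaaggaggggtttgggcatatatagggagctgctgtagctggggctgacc
Upk3a: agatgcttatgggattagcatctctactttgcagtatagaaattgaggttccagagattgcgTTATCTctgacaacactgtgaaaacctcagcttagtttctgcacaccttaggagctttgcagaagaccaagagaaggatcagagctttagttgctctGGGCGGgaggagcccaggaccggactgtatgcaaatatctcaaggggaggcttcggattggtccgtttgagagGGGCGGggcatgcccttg
The Aqp3 window held TATAAA from -29 to -24 and a GC box on the other strand from -73 to -68. The Upk3a window held AGATAA on the other strand from -188 to -183 and GC boxes from -91 to -86 and from -18 to -13. None of the 5 motifs was found in the Upk1a window. Of 32851 promoter windows of this length, 12.4% held the TATA box, 9.99% the GATA motif, 14% the half-site, 32.7% the GC box and 2.01% the Grainyhead motif. A match describes letters only.

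Each array carried amplified sample RNA in Cy5 against a pooled mouse reference RNA in Cy3, and a value is the log2 ratio of the first over the second. The share of probes with sample signal well above background was 67.3%, 69.3% and 45.5% in marker-positive replicates 1, 2 and 3, and 47.5% to 69.5% in the marker-negative group. Over all 41174 probes on the array, tested or not, marker-positive replicates 1 and 2 correlated at 0.92. Marker-positive replicate 3 reached 0.607 and 0.58 with them and 0.673 and 0.674 with marker-negative replicates 4 and 6. Replicate 3 thus stood apart from its own group, and some values that move with it are given without it too. Replicate 1 of each group lay on slide 1, and slide 2 held replicate 2 of each group with marker-negative replicate 4. Every other slide held 1 group only. The label of prostate was checked with 11 measured genes of prostate secretion, of which 10 were detected on all 9 arrays. Their mean log2 ratio lay between 4.75 and 5.48 on marker-positive arrays and between 6.84 and 7.62 on marker-negative arrays.

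None of the 11 probes passed an adjusted p of 0.05 in limma's moderated test, in either direction. Over all 28334 tested probes, 3.08% passed, 1.38% as higher and 1.70% as lower in marker-positive cells. The 5 uroplakin probes, of 4 genes, all had negative differences, that is, lower ratios in marker-positive cells. So did all 3 Sox9 probes, while Clu, Aqp3 and Ppp1r1b had positive ones. Upk3a was high on marker-negative replicates 4 and 6 only, and its marker-negative median of -1.25 was near its marker-positive mean of -1.23. Without marker-positive replicate 3, 2 of the Sox9 probes were positive, at 0.16 and 0.51. The largest differences belonged to 1 Sox9 probe, at -2.12 on the log2 scale, and to Upk1b, at -1.85. In these 2 probes alone the groups did not overlap, which is 18.2% of the 11, against 11.6% of all probes in either direction and 6.78% in the negative one. An unadjusted p under 0.05 was reached by 3 of the 11 probes, against 19.5% of all probes. When arrays were weighted by their scatter, which gave marker-positive replicate 3 the lowest weight, Clu (1.94, limma adjusted p = 0.0233) and Aqp3 (2.01, 0.0323) passed as higher. Sox9 A_51_P451606 (-2.17, 0.00756), Upk1b (-1.84, 0.0226) and Upk1a A_52_P166330 (-0.86, 0.0185) then passed as lower. In that setting 9.99% of all probes passed as higher and 11.7% as lower. In RNA from sorted populations, fewer cells of a type and less RNA per cell cannot be told apart.

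**Figure D1:**
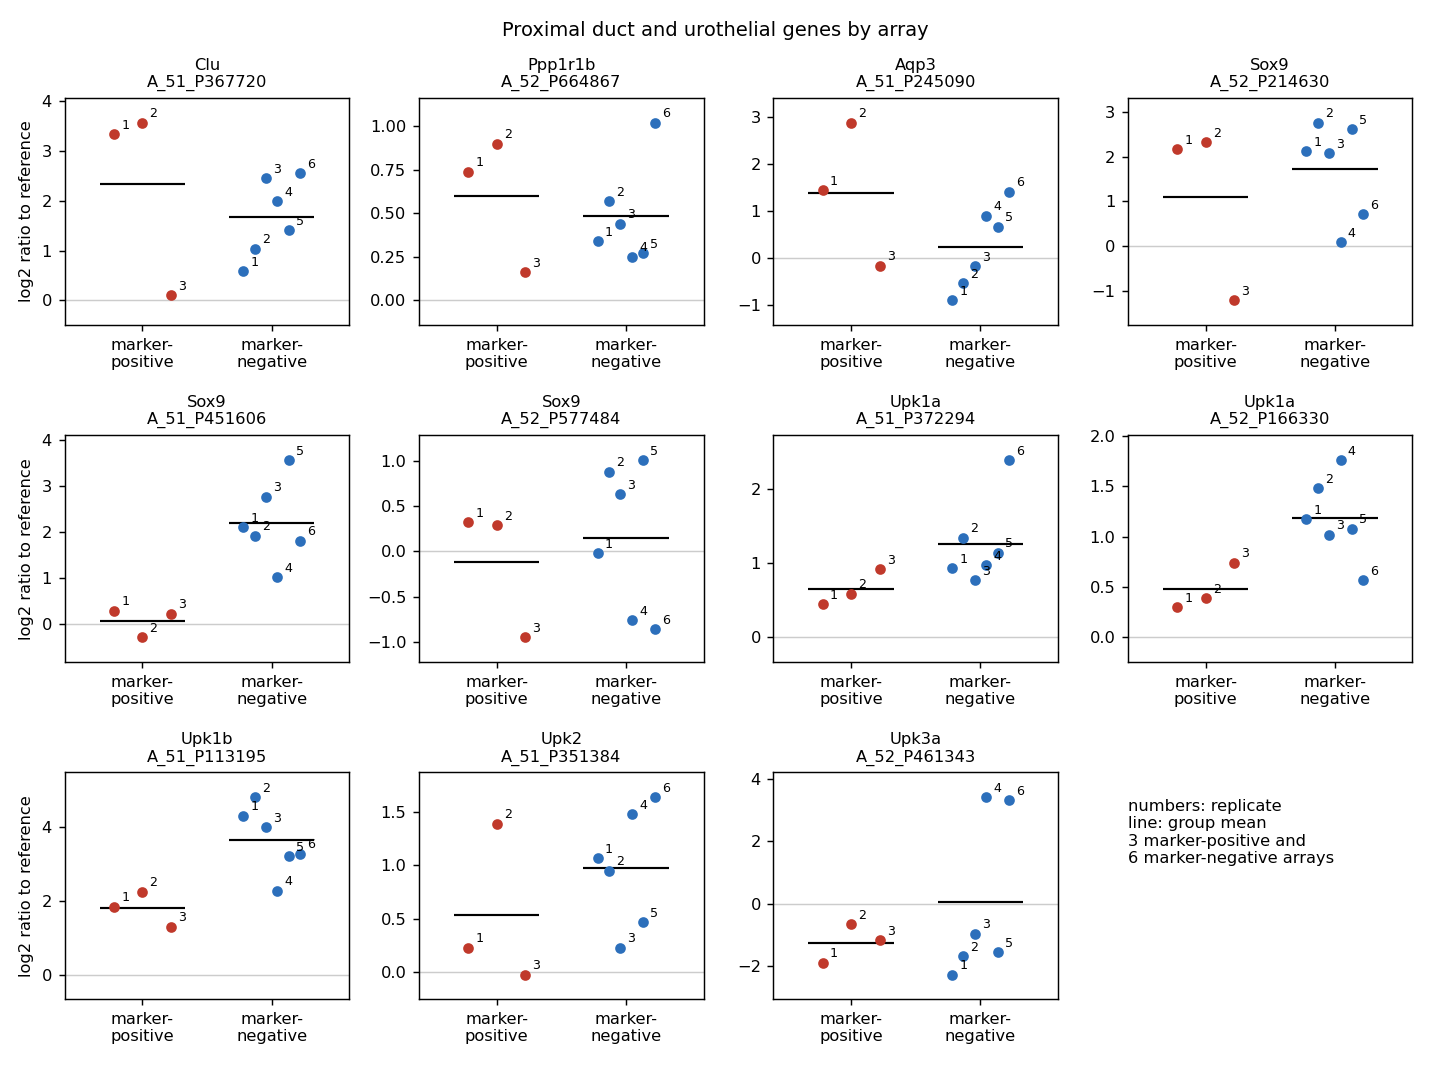
Log2 ratio of sample over reference RNA (vertical axis) for each of the 11 probes, with 1 point per array, the replicate number beside it and a line at the group mean (3 marker-positive arrays in red, 6 marker-negative arrays in blue). Groups do not overlap for Sox9 A_51_P451606 and Upk1b, and Upk3a is high on marker-negative replicates 4 and 6 only.

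Clu stood high on a pair of marker-positive arrays. Its log2 ratios (probe A_51_P367720, chr14:60841778-60841837, plus strand, build mm7) were 3.34, 3.57 and 0.10 in marker-positive replicates 1 to 3. The marker-negative arrays ran from 0.59 to 2.56 with a median of 1.70. Replicates 1 and 2 were above every marker-negative array and replicate 3 was below every one of them, so the groups overlapped in both directions. The difference of means was 0.66 (SE 0.80, 95% interval -1.13 to 2.45), from 2.34 ± 1.94 (SD, n = 3) against 1.67 ± 0.79 (SD, n = 6), with an adjusted p of 0.710 in limma. An exact permutation test over the 84 assignments of 3 of the 9 arrays, two-sided, gave p = 0.452, where 0.0119 is the smallest p it allows. Permutation p-values, here and below, are not adjusted over the member probes. Without marker-positive replicate 3 the difference was 1.78 (adjusted p = 0.111, limma), and it was 0.16 without replicate 1 and 0.04 without replicate 2. Within slide 1 it was 2.75 and within slide 2 it was 2.06, both without a test.

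Aqp3 was also high on marker-positive replicates 1 and 2. Its ratios (A_51_P245090, chr4:41231392-41231451, minus strand, mm7) were 1.45, 2.88 and -0.16 in marker-positive cells. In marker-negative cells they ran from -0.90 to 1.41 around a median of 0.25. Replicates 1 and 2 lay above all 6 marker-negative arrays, replicate 1 by a narrow margin, and replicate 3 lay among them. The means were 1.39 ± 1.52 (SD, n = 3) and 0.23 ± 0.90 (SD, n = 6). Their difference was 1.16 (SE 0.70, 95% interval -0.41 to 2.72; limma adjusted p = 0.407; exact permutation p = 0.155). It was 1.93 without replicate 3 (limma adjusted p = 0.127), 0.41 without replicate 2, 2.35 within slide 1 and 2.69 within slide 2. Sample signal was not well above background on marker-positive replicate 3 and marker-negative replicate 3, so their ratios are bounds set by background. Clu and Aqp3 correlated at r = 0.82 over the 9 arrays, which share the reference RNA and, in part, slides.

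Ppp1r1b, whose product inhibits protein phosphatase 1 once a kinase has phosphorylated it, spanned a narrow range. The probe (A_52_P664867, chr11:98464535-98465909, plus strand, mm7) gave 0.74, 0.90 and 0.16 in marker-positive cells and 0.25 to 1.02, with a median of 0.39, in marker-negative cells. The highest of all 9 values was on marker-negative replicate 6, and the groups overlapped. The difference was 0.12 (SE 0.24, 95% interval -0.41 to 0.65; limma adjusted p = 0.842; exact permutation p = 0.595), from means of 0.60 ± 0.39 (SD, n = 3) and 0.48 ± 0.29 (SD, n = 6). Without marker-positive replicates 1, 2 or 3 in turn it was 0.05, -0.03 and 0.34. Signal was not well above background on marker-positive replicate 3 and marker-negative replicate 4.

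The 3 Sox9 probes differed from one another. They lie in order along chr11 on the plus strand of mm7: A_51_P451606 at 112892041-112892893, A_52_P577484 starting 2698 bases further on at 112894739-112894798, and A_52_P214630 starting 4499 bases on at 112896540-112896599. The genomic range of the first is longer than those of the others. The exon structure of that build was not used here.

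Probe A_51_P451606 separated the groups. It gave 0.29, -0.29 and 0.22 in marker-positive cells. Marker-negative cells ran from 1.01 to 3.56 with a median of 2.01. Every marker-negative array was above every marker-positive array. The means of 0.07 ± 0.32 (SD, n = 3) and 2.19 ± 0.88 (SD, n = 6) differed by -2.12 (SE 0.52, 95% interval -3.28 to -0.96), or 4.35-fold. The limma adjusted p was 0.0618. The exact permutation p, not adjusted over probes, was 0.0119, the smallest that 3 against 6 arrays allow. Sample signal was well above background on 2 of 3 marker-positive and all 6 marker-negative arrays. It was not on marker-positive replicate 3, whose ratio is a bound set by background. Sample signal was 7.23, 6.58 and 7.19 on the log2 scale in marker-positive replicates 1 to 3, so the fold may be limited by background. On replicates 1 and 2 the other Sox9 probes were brighter, at 10.01 and 9.92 (A_52_P577484) and 11.14 and 11.27 (A_52_P214630).

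The call for that probe hung on the analysis. Its adjusted p in limma was 0.0367 on the scanner's processed signals (difference -3.24), 0.0485 without a variance trend and robust estimation (-2.12), 0.00756 with array weights (-2.17) and 0.0358 without marker-negative replicate 4 (-2.36). In these settings 1.72%, 2.11%, 11.7% and 1.98% of all probes passed as lower, in the same order. Over all alternatives its difference ran from -3.24 to -1.75 and its adjusted p from 0.00756 to 0.222, the sign staying negative in each. Within slide 1 the difference was -1.81 and within slide 2 it was -1.75.

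The other Sox9 probes did not separate the groups. A_52_P577484 gave 0.32, 0.29 and -0.95 in marker-positive cells and -0.86 to 1.01, with a median of 0.31, in marker-negative cells. A_52_P214630, printed in 10 spots on each array, gave 2.17, 2.32 and -1.21 against 0.09 to 2.76, with a median of 2.10. In both probes marker-positive replicate 3 was the lowest of all 9 arrays and marker-negative replicates 4 and 6 were the lowest of their group. Their differences were -0.26 (SE 0.50, 95% interval -1.39 to 0.87; limma adjusted p = 0.835) and -0.64 (SE 0.89, 95% interval -2.63 to 1.35; limma adjusted p = 0.755). Without replicate 3 they turned positive, at 0.16 and 0.51, and within slides 1 and 2 they were 0.35 and 0.23 for the former and 0.04 and 0.89 for the latter. These 2 probes correlated at r = 0.90 over the 9 arrays, and A_51_P451606 correlated with them at 0.47 and 0.40. Because of this disagreement no single direction is given for Sox9.

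**Figure D2:**
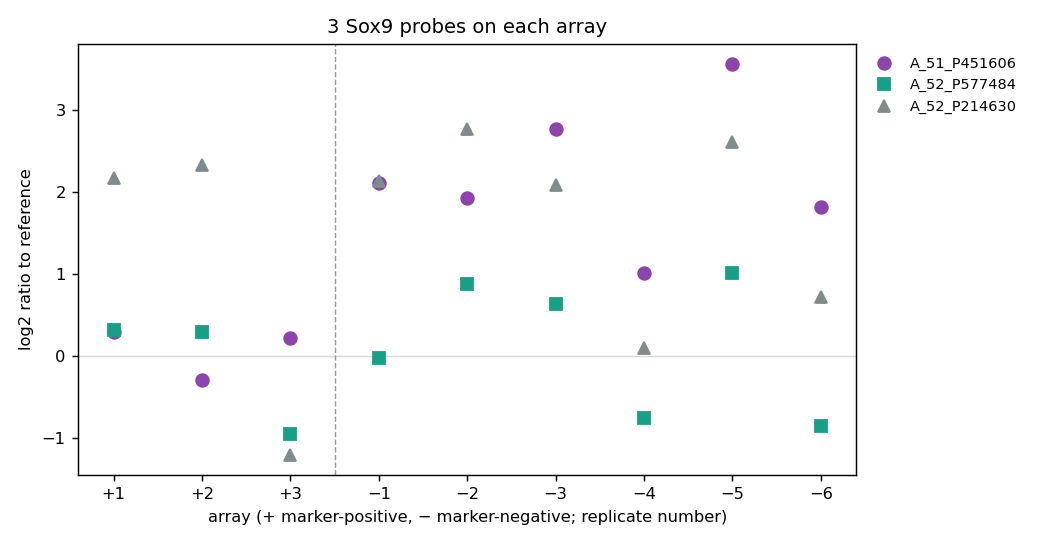
Log2 ratio of sample over reference RNA (vertical axis) for the 3 Sox9 probes on each of the 9 arrays (horizontal axis, marker-positive replicates to the left of the dashed line). Values of A_51_P451606 lie between -0.29 and 0.29 on the marker-positive arrays and between 1.01 and 3.56 on the marker-negative arrays, while the other probes have their lowest values on replicate 3 of the former group and on replicates 4 and 6 of the latter.

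Upk1b, the tetraspanin partner of Upk3a, had the clearest separation among the uroplakins. Its ratios (A_51_P113195, chr16:38483761-38483820, minus strand, mm7) were 1.84, 2.24 and 1.30 in marker-positive cells. They ran from 2.27 to 4.81 with a median of 3.63 in marker-negative cells. The groups did not overlap, although marker-positive replicate 2 at 2.24 and marker-negative replicate 4 at 2.27 were close. The means were 1.79 ± 0.47 (SD, n = 3) and 3.64 ± 0.91 (SD, n = 6). Their difference of -1.85 (SE 0.58, 95% interval -3.15 to -0.55), or 3.60-fold, had an adjusted p of 0.123 in limma and an exact permutation p of 0.0238. Within slide 1 the difference was -2.48 and within slide 2 it was -1.30. Signal was well above background on all 9 arrays, and reference signal varied little, from 7.41 to 7.55 on the log2 scale.

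Upk1a, the tetraspanin partner of Upk2, was measured by 2 probes. A_51_P372294 (chr7:27544632-27544691, minus strand, mm7) gave 0.45, 0.59 and 0.92 in marker-positive cells against 0.77 to 2.39, with a median of 1.05, in marker-negative cells. A_52_P166330 (chr7:27546445-27548138, minus strand, mm7) gave 0.30, 0.39 and 0.74 against 0.57 to 1.76, with a median of 1.12. Marker-positive replicates 1 and 2 lay below every marker-negative array in the former and in the latter, and replicate 3 lay inside the marker-negative range. The differences were -0.60 (SE 0.37, 95% interval -1.43 to 0.22; limma adjusted p = 0.415; exact permutation p = 0.119) and -0.70 (SE 0.29, 95% interval -1.35 to -0.06; limma adjusted p = 0.219; exact permutation p = 0.0595). The probes did not follow each other across arrays (r = 0.10, n = 9): marker-negative replicate 6 was the highest in the first, whose difference was -0.38 without it, and the lowest of its group in the second. Reference signal of A_52_P166330 was well above background on 6 of 9 arrays, and on marker-negative replicate 4 it was 7.76 on the log2 scale against 6.35 to 6.48 elsewhere.

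Upk2 showed no separation. The probe (A_51_P351384, chr9:44387084-44387143, minus strand, mm7) gave 0.23, 1.39 and -0.02 in marker-positive cells and 0.23 to 1.64, with a median of 1.01, in marker-negative cells. The difference was -0.44 (SE 0.41, 95% interval -1.36 to 0.48; limma adjusted p = 0.613; exact permutation p = 0.298), and it was -0.85 within slide 1 and 0.18 within slide 2. It was -0.29 without marker-positive replicate 1, -0.87 without replicate 2 and -0.16 without replicate 3. Signal was not well above background on replicate 3 of either group.

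Upk3a was the member with the widest spread. Its ratios (A_52_P461343, chr15:85103710-85104611, plus strand, mm7) were -1.88, -0.66 and -1.17 in marker-positive cells and -2.26, -1.68, -0.95, 3.41, -1.54 and 3.31 in marker-negative replicates 1 to 6. Marker-negative replicates 4 and 6 were high and the other 7 arrays were all below 0. Their sample signal was 11.48 and 11.37 on the log2 scale against 6.15 to 7.63 elsewhere, while reference signal was 8.05 to 8.41 on all arrays. The difference of means was -1.28 (SE 1.37, 95% interval -4.36 to 1.79; limma adjusted p = 0.669; exact permutation p = 0.464), and within slides 1 and 2 it was 0.38 and -1.52. It was -0.61 without marker-negative replicate 4 and -0.63 without replicate 6. These arrays were not left out together. The marker-negative median was -1.25, inside the marker-positive range of -1.88 to -0.66. Signal was well above background on 2 of 3 marker-positive and 3 of 6 marker-negative arrays.

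Upk1b, Upk1a and Upk2 did not share this pattern in full. On marker-negative replicates 4 and 6 Upk1b was 2.27 and 3.27, the former being the lowest of its group. Upk2 was 1.48 and 1.64 there, the highest values of its group, and it correlated with Upk3a at r = 0.65 over the 9 arrays. Replicate 4 was on slide 2 and replicate 6 on slide 4, so the pair shared no slide.

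**Figure D3:**
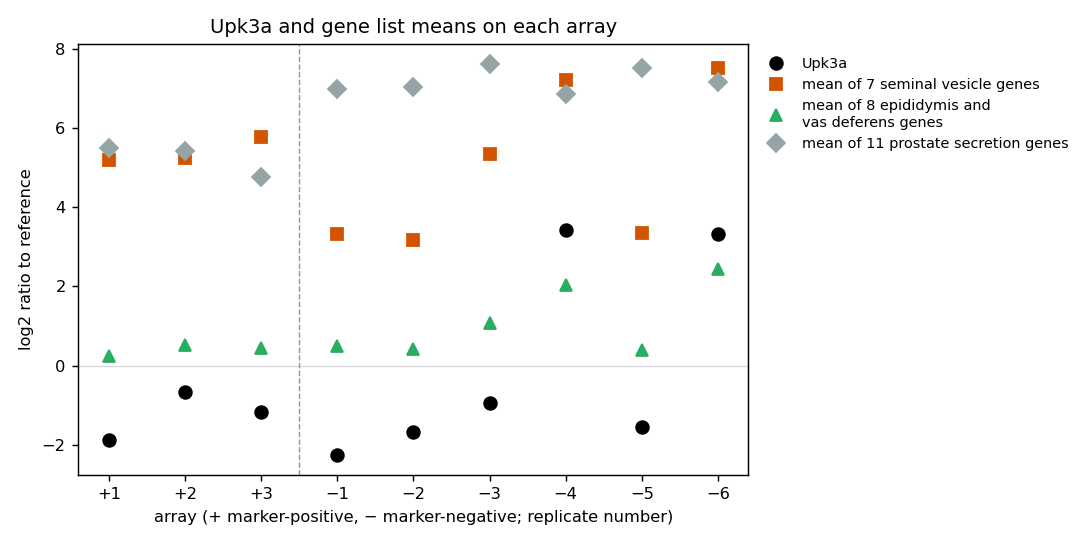
Log2 ratio of Upk3a (black) and mean log2 ratio of 3 gene lists (coloured) on each of the 9 arrays, marker-positive replicates to the left of the dashed line. Upk3a is 3.41 and 3.31 on marker-negative replicates 4 and 6, where the seminal vesicle list has means of 7.20 and 7.51 and the epididymis and vas deferens list 2.04 and 2.45, each higher than on any other array. The epididymis and vas deferens list was written after some of its values had been seen. It includes Defb11, which correlated with Upk3a at r = 0.961, so it is not an independent comparison.

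Markers of neighbouring glands and of lymphocytes were also at their highest on these arrays. The mean over 7 seminal vesicle genes was 7.20 and 7.51 on marker-negative replicates 4 and 6, against 3.18 to 5.76 on the other 7 arrays. Over 8 measured genes of epididymis and vas deferens, a list written after some of its values had been seen, the means were 2.04 and 2.45 against 0.24 to 1.08. Akr1b7, an aldo-keto reductase abundant in the vas deferens, stood at 7.26 and 7.60 there and at 3.77 on marker-negative replicate 3. It was between -1.03 and 1.18 on the other 6 arrays. Defb11 of that list was among the 3 genes most correlated with Upk3a (r = 0.961), so the list is not an independent comparison. It was not uniform either. Cst11 was 0.73 and 1.12 on replicates 4 and 6, the lowest of its group, Gpx5 was 0.18 and 0.45 and Rnase9 0.63 and 0.48, and Crisp1, Lcn5, Lcn8, Adam7 and Cst8 did not pass the filter on low signals. No gene of either list passed the test between the groups. The lymphocyte mean was 2.45 and 2.71 on these arrays against -0.54 to 1.72 elsewhere, with Cd3g, a chain of the T cell receptor complex, at 4.41 and 4.69. The part of these tissues and cells in the Upk3a signal was not tested.

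Luminal and basal markers of the prostate are given beside the members. All 12 luminal genes (Krt8, Krt18, Hoxb13 and others) had negative differences with a median of -1.55, though none passed in limma. Their mean ratio was 2.58, 2.67 and 0.16 on marker-positive replicates 1 to 3 and 2.64 to 4.26 on marker-negative arrays. Among 12 basal genes 10 had positive differences, with a median of 0.83, while Krt15 had -0.64 and Krt5 -0.01. Only Trp63, the transcription factor p63 of basal cells, passed, at 2.02 (limma adjusted p = 0.0486), where 1.44% of all genes passed as higher. Its sample signal was well above background on all 3 marker-positive but only 2 of 6 marker-negative arrays. The basal mean was 1.87, 2.39 and 0.23 on marker-positive arrays and 0.01 to 1.74 on marker-negative arrays. Marker-positive replicate 3, low in Clu, Aqp3 and 2 Sox9 probes, thus had low means of both epithelial lists, and its fibroblast mean of -3.02 compares with 2.05 and 1.88 on replicates 1 and 2. In marker-positive cells 4 of 12 macrophage genes and 3 of 10 mast cell genes passed as higher, where 1.44% of all genes did, with list means of 3.26 to 4.23 against 0.24 to 2.62 and of 3.63 to 4.08 against 0.71 to 3.01. As lower there passed 4 of 12 lymphocyte genes (Cd3d at -5.27), 2 of 3 tested erythroid genes (Alas2 at -4.04) and 4 of 11 genes of prostate secretion (Msmb at -5.24), where 1.40% of all genes did. Kit, which encodes the sorted protein CD117, is itself in the mast cell list. The part of this mixture in the members' differences was not tested.

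**Figure D4:**
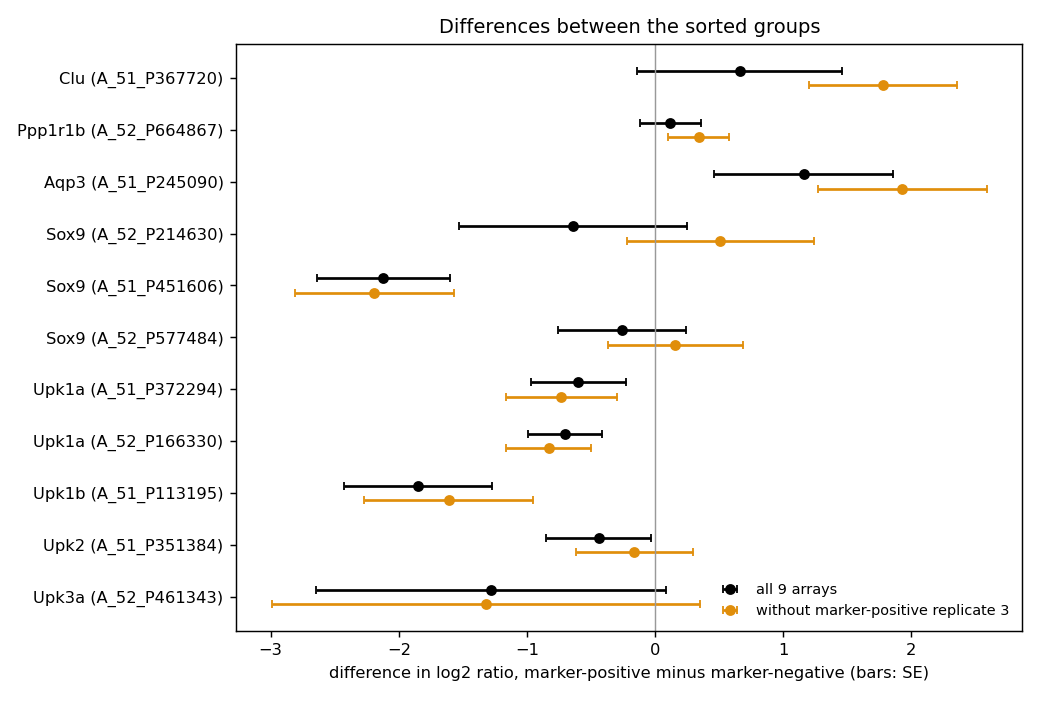
Difference in mean log2 ratio, marker-positive minus marker-negative (horizontal axis), with SE bars, for each of the 11 probes over all 9 arrays (black) and without marker-positive replicate 3 (orange). Clu moves from 0.66 to 1.78 and Aqp3 from 1.16 to 1.93 when that array is left out, 2 Sox9 probes cross 0, and Upk1b stays negative.

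Genes with roles close to those of the members were read as lists, beside 2.84% of 19851 genes called over the whole array and a median difference of -0.01. Of 12 other genes of the proximal duct and urethra, 8 had positive and 4 negative differences, with a median of 0.59 and none called. Psca, a surface protein of the Ly6 family in lining epithelia, had 1.61 (adjusted p = 0.117), Krt4, a keratin of stratified linings, had 0.66 (0.196), Krt7 had 1.58 (0.251) and Krt19 had -2.11 (0.278), all in limma. Krt7's second probe had 1.83 (limma adjusted p = 0.138). Without marker-positive replicate 3 the difference of Krt19 was -0.59. With that array left out, Psca at 2.18 (limma adjusted p = 0.0271) and Krt4 at 1.01 (0.0196) passed as higher, where 4.31% of all genes did. Krt4 signal was well above background on only 2 of 3 marker-positive and 1 of 6 marker-negative arrays.

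Of 18 genes of urothelial differentiation 15 were tested and none was called. Of these, 8 had positive and 7 negative differences, with a median of 0.20. Gata3, a transcription factor of luminal and urothelial cells, had -1.96 (limma adjusted p = 0.0977), and Cldn8, a claudin of tight junctions, had -2.77 (0.123). Klf5, a transcription factor of proliferating epithelia, had 1.56 (limma adjusted p = 0.121) in its brightest probe and 0.35 in another. Slc14a1, a urea transporter, had 1.33 (limma adjusted p = 0.133) and 0.66. The other uroplakin genes of the list, Upk3b and Upk3bl, had 0.65 and 0.20, and neither passed. Without marker-positive replicate 3 they had 0.35 and -0.21. Upk3b signal was well above background on only 2 of 3 marker-positive and 2 of 6 marker-negative arrays.

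The families of Sox9 and Aqp3 were no more uniform. Of 12 other Sox genes tested, 6 were positive and 6 negative, with a median of -0.10 and none called. Sox7, a factor of endothelial cells, reached 3.11 (limma adjusted p = 0.202) with 3.77, 6.23 and -0.30 in marker-positive cells. Sox12 had -0.74 (limma adjusted p = 0.130), Sox14 -0.87 (0.243) and Sox11 0.79 (0.264). Signal of that Sox11 probe was well above background on only 2 of 3 marker-positive and 1 of 6 marker-negative arrays. Another Sox14 probe had 0.01, while both other Sox11 probes were positive, and a second Sox7 probe had 1.99 (limma adjusted p = 0.451). Of 9 other aquaporins tested, 5 were positive and 4 negative, with a median of 0.26 and none called. Aqp1, the water channel of capillaries, had 2.38 (limma adjusted p = 0.268), and Aqp2, Aqp11 and Aqp7 had -1.11, 0.63 and 0.34. Without marker-positive replicate 3, Sox7 (4.87, limma adjusted p = 0.0169), Sox18 (3.20, 0.0364) and Aqp1 (4.03, 0.0141) passed as higher, where 4.31% of all genes did. The aquaporin median was then -0.05. That median was -0.02 without marker-positive replicate 2. The endothelial list had means of 3.19, 4.67 and 0.71 on the marker-positive arrays and 0.30 to 1.67 on the others. Of its 12 genes 11 had positive differences and 2 were called higher, where 1.44% of all genes were. Cldn5 of that list had 0.43 and Emcn -0.02.

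Around Ppp1r1b, 12 genes of protein phosphatase 1, its inhibitors and the kinases that act on DARPP-32 had a median of 0.15, with 7 positive, 5 negative and none called. Ppp1r2, another inhibitor of the phosphatase, had 1.30 (limma adjusted p = 0.147) in its brightest probe. Of its 4 other probes, A_51_P221512 at 0.84 (0.0304) and A_52_P164615 at 1.53 (0.0332) passed in limma, and all were positive. Without marker-positive replicate 3 the brightest probe passed as well, at 1.79 (limma adjusted p = 0.0401), where 4.31% of all genes passed as higher. Prkacb, a catalytic subunit of protein kinase A, had 0.81 (limma adjusted p = 0.106) in one probe and -2.22 (0.0269) in the other. Ppp1r14a and Ppp1r1c had 1.48 and -0.93 (limma adjusted p = 0.357 and 0.282), and a second Ppp1r1c probe had -0.04. Of 4 receptors that bind clusterin, Trem2 of myeloid cells had 2.07 (limma adjusted p = 0.0921) and Vldlr 1.48 (0.236), Lrp8 had -0.30 (0.715) and Lrp2 -0.09 (0.843). Other probes gave 1.66 for Trem2 (limma adjusted p = 0.127), 0.88 for Vldlr (0.293) and 0.24 for Lrp2 (0.573). In its brightest probe Trem2 stood at -0.26, -1.30 and -0.70 in marker-positive cells and between -4.43 and -1.54 in marker-negative cells. The groups did not overlap there, as in 4.82% of all probes in that direction.

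**Figure D5:**
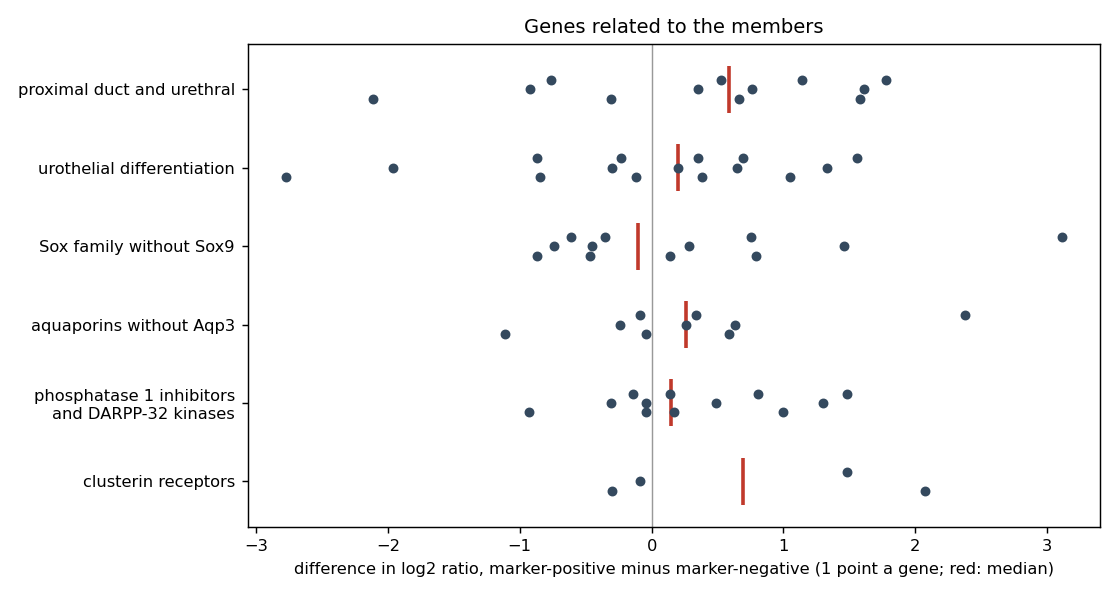
Difference in mean log2 ratio, marker-positive minus marker-negative (horizontal axis), for every tested gene of 6 related lists, with 1 point per gene and a red line at each median. Medians lie between -0.10 (other Sox genes) and 0.69 (clusterin receptors), and every list has points on both sides of 0.

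For each member the 3 genes most alike across the 9 arrays were taken by Pearson's r with its brightest probe, as a description. Clu was most like Raly (0.958), Gm10336 (0.950) and Sertad2 (0.947). Ppp1r1b was most like Olfr1355 (0.967), S100a16 (0.956) and Gm428 (0.955), and Aqp3 like the transcript AK039663 (0.965), Svil (0.957) and Zfyve28 (0.957). Sox9 was most like Arl1 (0.966), 3830406C13Rik (0.964) and Ltbp3 (0.963). Among the uroplakins, Upk1a was most like Mipol1 (0.975), Snhg11 (0.960) and Slc25a12 (0.955), and Upk1b like Stag2 (0.979), Olfr177 (0.978) and Lmx1b (0.977). Upk2 was most like Zfp385b (0.941), Cbx8 (0.931) and the transcript AK076764 (0.929), and Upk3a like Cx3cr1 (0.963), Defb11 (0.961) and Fcrl1 (0.958). With 9 arrays of one reference and 28334 probes, such values are the top of a long ranking. No member appeared among another member's 3.

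The authors' deposited table gives a signed fold of stem over non-stem cells for the same probes, in which a negative fold stands for a lower level in stem cells. In the authors' deposited table Sox9 A_51_P451606 had a fold of -4.37 with an adjusted p of 0.0122, and Upk1b a fold of -3.60 with an adjusted p of 0.0242. Both passed there, where 3.12% of 43379 entries passed as lower, and neither passed in the fit above. The other members in the authors' deposited table had folds of -2.42 (Upk3a) to 2.24 (Aqp3) with adjusted p from 0.142 to 0.865. The table's log2 difference has the opposite sign to its fold in every entry, and the direction of the fold was used here.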

How the data were processed

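Labels give PicoPure RNA isolation, MessageAmp II amplification and Quick Amp labelling. Per the file headers, Agilent Feature Extraction 10.7.3.1 (10.7 in the submitters' processing notes) wrote for each spot the mean intensity, the local background and flags, and a processed intensity after its own background subtraction and dye normalization. The authors' deposited table holds log2 differences and means, p-values with adjusted p-values, a signed fold and the other score columns of limma. The normalization behind it is not stated in the sources.

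Mean intensities were corrected by normexp (offset 50), and log2 ratios of Cy5 over Cy3 went through loess array by array (limma 3.58.1, R 4.3.3), without scaling between arrays. Control and outlier spots had weight 0, outliers became missing, and a probe is the average of its spots. Probes with Cy5 well above background on at least 3 arrays were tested (28334 of 41174, for 19851 genes or transcripts). Dyes were not swapped. limma's moderated test (trend, robust, two-sided) compared 3 with 6 arrays, with Benjamini-Hochberg adjustment over all tested probes and a threshold of 0.05. A gene in a list is its brightest tested probe. The procedure was tested on simulated data.

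Coordinates are those of the scanner files, build mm7:NCBI35:Aug2005. Names came from RefSeq's GRCm38.p6 table: 22951 probes by systematic name, 21 by accession, 6644 by symbol and 3105 by synonym, while 8453 kept the file's name. Genes named in the text are all members, the 4 of each related list with the smallest adjusted p and any that was called, and the 3 most correlated with each member. Other list genes that are named were chosen after their values were seen. Members and lists were chosen with earlier results of these data known.

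Alternatives covered the variance model, the detection filter, the background correction and normalization, weights per array, the slide, the probe rule and each array left out. Leaving out the 2 arrays with under 50% of probes detected, and slides 1 and 2 alone, were chosen after seeing the data. The number of arrays limits the precision. Plots used matplotlib 3.10.9.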

Additional observations from a re-analysis of the deposited data

Results flagged for a closer look

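Among 30 sets of 6 marker-negative values (11 probes and 19 list means), 3 had an array set apart from the others by more than 0.625 of the whole range, a limit that chance passes in about 1 in 20 sets. Upk1a probe A_51_P372294 stood at 2.39 on marker-negative replicate 6, where the gap to the next array was 0.645 of the range. The other Upk1a probe was 0.57 on the same array, the lowest of its group.

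The mean over 10 mast cell genes was 3.01 on marker-negative replicate 3 (0.735 of the range), against 0.71 to 1.32 on the other marker-negative arrays. The mean over 3 tested erythroid genes was 5.63 on that array (0.650 of the range), and 3.66 to 4.35 on the others. On that array Clu was 2.46 and Sox9 A_51_P451606 was 2.76, each inside the range of its group. The part of these cells in the members' values was not tested.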

How the results depend on the processing

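No member probe was called in either direction. Called as lower were 1 probe on processed signals, 1 without variance trend and robust estimation, 3 with array weights, and 0 to 1 when each array was left out in turn (1 without marker-negative replicate 4). Called as higher were 2 with array weights. All other alternatives called none, including slide as a fixed block, where limma called 0 of all probes (4697 at an unadjusted p under 0.05). Of the Sox9 probes, 2 turned positive: A_52_P214630 at 0.14 with array weights, 0.53 with slide as a fixed block, 0.51 without marker-positive replicate 3 (-1.25 to 0.51 over all arrays left out), 0.58 without the 2 arrays under 50% detected and 0.53 on slides 1 and 2 alone. A_52_P577484 was then 0.04, 0.28, 0.16 (-0.48 to 0.16), 0.26 and 0.28. With array weights marker-positive replicate 3 had the lowest weight, 0.240. As the only array on slide 3, it added nothing to the difference with slide as a fixed block. That setting therefore gave the same difference as slides 1 and 2 alone. The other settings in which both probes were positive leave this array out. Ppp1r1b was -0.03 without marker-positive replicate 2 (-0.03 to 0.34 over all arrays left out). The cause was not tested.

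Differences of Upk1b ran from -2.48 to -1.30 over all alternatives, those of Clu from 0.04 to 2.75 and those of Aqp3 from 0.41 to 2.69. Of all calls 44.7% were higher. That share was 34.3% on processed signals, 62.5% without marker-positive replicate 3, 56.2% without replicate 2 and 60.4% without the 2 arrays under 50% detected. Replicate numbers come from accession order and pair nothing, so no replicate block was fitted. Arrays of both groups share slides 1 and 2. On these alone, with slide as a block, Clu was 2.36 (SE 0.53) and Aqp3 2.55 (SE 0.52). Neither passed there (limma adjusted p = 0.169 and 0.157), and 0 of all probes were called in that setting.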

Other observations

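Seminal vesicle genes differed in which arrays were high. Svs2 was 6.82 and 7.42 on marker-negative replicates 4 and 6 and 1.39 to 4.53 on the other arrays. Svs3a was 7.37 and 7.71 on that pair, 6.96 on marker-positive replicate 3 and 0.16 to 2.80 elsewhere. Svs4 reached 8.61 and 9.28 on that pair, close to its 8.78 and 8.99 on marker-positive replicates 1 and 2, and lay between 1.11 and 6.68 on the other 5 arrays.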
